A study of Rattus norvegicus with 45 samples.

Results

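The contractile apparatus of fast muscle fibres is built from its own isoforms of many sarcomere proteins, and 8 genes for such isoforms were followed here: Tnnt3, Tnni2 and Tnnc2 (the fast troponins T, I and C), Mybpc2 (fast myosin-binding protein C), Myl1 and Mylpf (the essential and regulatory light chains of fast myosin), Actn3 (alpha-actinin 3 of the Z-disc) and Mylk2 (skeletal muscle myosin light chain kinase). They were found by their gene symbol on the array, where Mylpf is listed under its current name Myl11. All 8 were present, on 11 probe sets (Tnnt3, Mybpc2 and Mylk2 have a pair each), out of 14217 genes with a single symbol, and all 11 probe sets passed the filter on low signal. The fold changes are given for the brightest probe set of each gene unless the other is named.

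The study gave female SD rats cerivastatin, a statin that inhibits HMG-CoA reductase, at 0.1, 0.5 or 1.0 mg/kg/day, or the vehicle alone (0.5% methylcellulose), once daily for 14 days. In one arm of each treatment the rats also exercised on a treadmill on 5 days/week, for 20 min/day at 20 m/min, and the other arm did not exercise. The gastrocnemius, a mostly fast muscle, was measured at all 4 dose levels with and without exercise (8 groups, 30 arrays), and the soleus, a mostly slow muscle, in the vehicle and 1.0 mg/kg/day groups with and without exercise (4 groups, 15 arrays). Of the 12 groups, 9 had 4 arrays, and the gastrocnemius at 1.0 mg/kg/day without exercise, the gastrocnemius at 0.5 mg/kg/day with exercise and the soleus at 1.0 mg/kg/day without exercise had 3. Each array is a biological replicate according to the submitters, with RNA from lysed tissue holding every cell type of the muscle. The labels do not tie a soleus to a gastrocnemius of the same rat, so the muscles were compared as separate samples. About 4 µg of total RNA was labelled for a gastrocnemius and 3 µg for a soleus sample, so RNA input and muscle cannot be told apart.

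As background, calcium released into the fibre binds troponin C, which moves troponin I and T with tropomyosin off the myosin-binding sites of actin. The speed of contraction is set mainly by the myosin heavy chain, while the light chains, myosin-binding protein C and phosphorylation of the regulatory light chain by Mylk2 tune how many cross-bridges form and how fast. Alpha-actinin 3 crosslinks actin filaments at the Z-disc and is made mostly in fast glycolytic fibres, and slow fibres use counterparts such as Tnnt1, Tnni1, Tnnc1, Myl2, Myl3, Mybpc1 and Actn2.

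Promoter windows of 300 bases, 250 before the transcription start and 50 after it, were taken from RefSeq on GRCr8, since the members share a fibre type and all fell in the exercised gastrocnemius at 1.0 mg/kg/day. Windows were matched for 6 of the 8 genes (7 windows, with a pair for Myl1, which is known to be transcribed from alternative promoters into a long and a short light chain). The 4 windows below are those of the gene with the widest signal range (Actn3), of a fast troponin (Tnni2) and of both Myl1 starts, at chr1:211604352-211604651 on the minus strand for Actn3, chr1:207024240-207024539 on the plus strand for Tnni2, and chr9:75907647-75907946 and chr9:75897750-75898049 on the minus strand for Myl1. Each is written 5′ to 3′ along its gene, and capitals mark matches to TATAAA on either strand or to the MEF2 site.
Actn3: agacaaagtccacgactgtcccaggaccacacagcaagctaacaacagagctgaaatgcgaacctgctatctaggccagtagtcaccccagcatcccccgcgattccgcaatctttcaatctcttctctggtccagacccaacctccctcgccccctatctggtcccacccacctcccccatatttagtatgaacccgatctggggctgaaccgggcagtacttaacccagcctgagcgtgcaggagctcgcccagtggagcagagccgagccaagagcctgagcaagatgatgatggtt
Tnni2: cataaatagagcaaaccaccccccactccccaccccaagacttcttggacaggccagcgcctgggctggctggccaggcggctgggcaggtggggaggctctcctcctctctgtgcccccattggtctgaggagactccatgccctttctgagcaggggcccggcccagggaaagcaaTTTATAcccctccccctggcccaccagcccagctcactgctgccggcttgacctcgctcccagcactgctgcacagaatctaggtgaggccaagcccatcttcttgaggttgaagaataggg
Myl1, first window: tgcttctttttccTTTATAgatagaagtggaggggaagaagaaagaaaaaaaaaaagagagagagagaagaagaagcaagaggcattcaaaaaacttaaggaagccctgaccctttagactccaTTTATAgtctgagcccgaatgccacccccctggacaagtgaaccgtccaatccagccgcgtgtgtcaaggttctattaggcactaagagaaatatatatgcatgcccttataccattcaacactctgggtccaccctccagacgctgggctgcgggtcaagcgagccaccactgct
Myl1, second window: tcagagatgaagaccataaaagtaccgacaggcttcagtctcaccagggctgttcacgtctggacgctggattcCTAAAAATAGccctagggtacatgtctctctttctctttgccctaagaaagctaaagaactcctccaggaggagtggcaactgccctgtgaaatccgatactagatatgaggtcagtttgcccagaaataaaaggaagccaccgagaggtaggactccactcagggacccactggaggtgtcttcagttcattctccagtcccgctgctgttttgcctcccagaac

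The search, on both strands, was for TATAAA, the MEF2 site, the CArG box, the MCAT element GGAATG and the E-boxes CANNTG and CAGCTG, of which CAGCTG is also a match to CANNTG and AT-rich motifs can overlap each other. TATAAA was present in 2 of the 7 windows (Tnni2 and the first Myl1 window), against 14.2% of all 33469 RefSeq windows. A MEF2 site was found in the second Myl1 window and in 1.87% of all windows. GGAATG was found in the Mybpc2 window and in 14.2% of all windows, and CAGCTG in the Mylpf window and in 15.1%. CANNTG was found in 6 of the 7 windows and in 72.1% of all, and the CArG box in 0 of 7 and in 1.64%. These are letter matches only, and the Actn3 window held none of the capitalised motifs.

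The signal is the MAS5 intensity of a probe set, and the trimmed mean of each array lay between 600.2 and 600.3. In the vehicle gastrocnemius 7 of the 11 member probe sets were among the brightest on the array, each within the top 34 of all 31042 probe sets on the 8 vehicle arrays, with array maxima between 47263 and 110223 over the series. Across those 8 arrays the highest signal of the 7 was between 1.15 and 1.47 times the lowest. On the same arrays the 4 dimmer probe sets varied more, by 1.58 times for Mybpc2, 1.96 for Tnnt3, and 2.36 and 2.9 for Mylk2. The fast myosin heavy chain Myh4 lay between 52135 and 89697 on the vehicle gastrocnemius arrays. Myh7, the slow heavy chain, lay between 56001 and 95343 on all 15 soleus arrays, but between 11.5 and 84953 on the gastrocnemius arrays, so the level of slow-fibre RNA differed widely between gastrocnemius arrays.

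A number of arrays stood apart. In the soleus, 5 of 15 arrays had Myh4 between 15261 and 40056, while the other 10 had 62.2 to 2727, and the 5 were 2 of 4 in each vehicle group, 1 of 3 at 1.0 mg/kg/day without exercise and 0 of 4 at 1.0 mg/kg/day with exercise. The 5 also had adipocyte marker sums of 19881 to 98523 (highest on unexercised vehicle replicate 3) and actin 5′ to 3′ ratios of 0.255 to 0.383. The other 10 had adipocyte sums of 11074 to 19242, except 103594 on exercised 1.0 mg/kg/day replicate 1, and actin ratios of 0.245 to 0.707. Their part in the fast-fibre signals was not tested. Among gastrocnemius arrays, replicate 3 at 0.1 mg/kg/day without exercise had an actin 5′ to 3′ ratio of 0.116, the lowest of the series (the highest was 0.707), with an adipocyte marker sum of 126410 where the other 3 had 4384 to 9100. Replicate 3 at 1.0 mg/kg/day without exercise was nearer to the vehicle arrays than the other 2 of its group, with Cd68, a macrophage marker, at 249.5 where the other 2 had 4141 and 5158. Results that rest on these arrays are given with and without them.

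**Figure D1:**
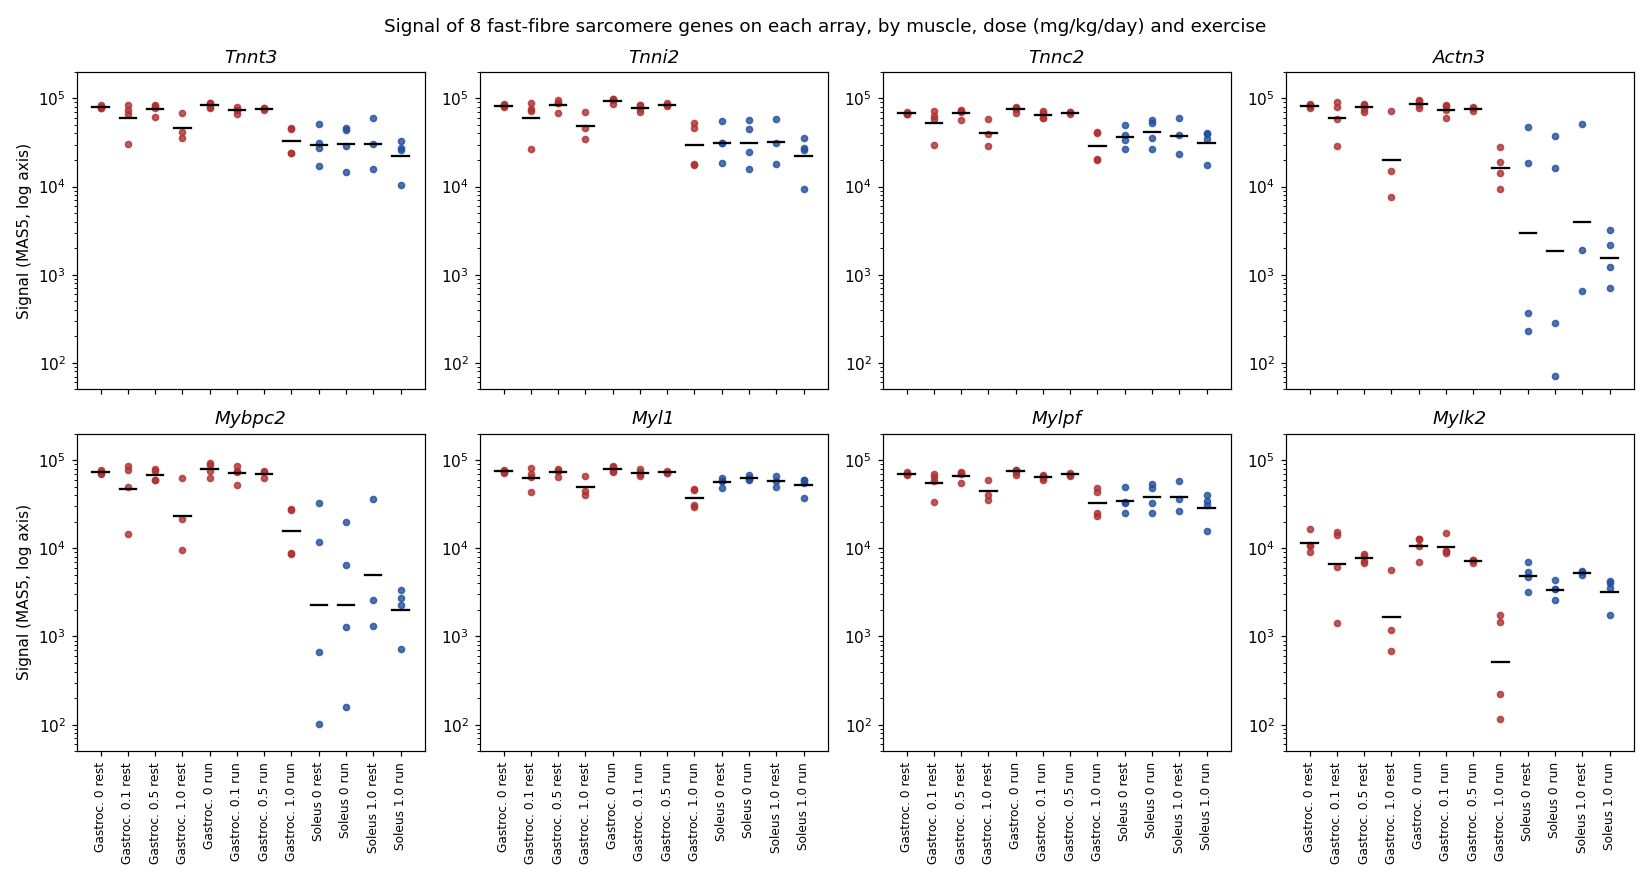
Signal of the brightest probe set of each of the 8 genes on every array (points, MAS5 intensity on a log axis) by muscle, dose in mg/kg/day and exercise (rest, no treadmill; run, treadmill), gastrocnemius in red and soleus in blue; black bars are geometric means. At 1.0 mg/kg/day the exercised gastrocnemius arrays lie below all gastrocnemius vehicle arrays for every gene, and in the soleus the highest array is 719 times the lowest for Actn3 and 358 times for Mybpc2.

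The first question was what the highest dose did in the gastrocnemius. With exercise, all 8 genes fell at 1.0 mg/kg/day, where 20.4% of all 21729 probe sets tested were called lower (limma, Benjamini-Hochberg adjusted p under 0.05). The log2 changes ran from -4.31 (Mylk2) to -1.10 (Myl1) with a median of -1.53, beside a median of -0.0062 over all probe sets, and adjusted p ran from 3.9e-05 to 0.000375. On all 11 probe sets the 4 treated arrays lay below the 4 vehicle arrays, as they did on 20.1% of all probe sets tested. In RNA of whole muscle, fewer fast fibres and less RNA of these genes per fibre cannot be told apart.

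Among the troponins, Tnni2, the inhibitory subunit, had signals of 86462, 98545, 96232 and 97378 on the 4 exercised vehicle arrays and 46425, 17509, 52930 and 18047 on the 4 arrays at 1.0 mg/kg/day. Its log2 change was -1.67 ± 0.33 (SE, n = 4 and 4), or 3.18-fold lower, with an adjusted p of 0.000271. The treated arrays fell into a higher pair, replicates 1 and 3, and a lower pair, replicates 2 and 4. Tnnc2, the calcium-binding subunit, had 67982, 75166, 77970 and 80160 with vehicle against 41238, 20304, 40946 and 20160, a log2 change of -1.38 ± 0.26 (adjusted p 0.000191). Tnnt3, which ties the complex to tropomyosin, had 78368, 79442, 89452 and 88911 against 45354, 23728, 45808 and 24136, a log2 change of -1.34 ± 0.27 (adjusted p 0.000306). In both, the treated replicates were split as for Tnni2. The second, much dimmer Tnnt3 probe set had 3192, 2897, 4456 and 3163 with vehicle and 826, 326, 1391 and 218 with the drug, and its log2 change was -2.62 ± 0.51 (adjusted p 0.00023).

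Of the thick filament genes, Mybpc2 fell most. Its brighter probe set had 76125, 62809, 88011 and 92056 with vehicle and 28304, 8812, 26993 and 8677 at 1.0 mg/kg/day, a log2 change of -2.34 ± 0.48 or 5.07-fold lower (adjusted p 0.000375). Its dimmer probe set changed by -3.05 ± 0.59 (adjusted p 0.000232). The light chains fell least among the 8 genes. Myl1, the essential chain, had 74044, 75966, 83537 and 86980 with vehicle and 46165, 29114, 46942 and 30962 with the drug, a log2 change of -1.10 ± 0.21 or 2.14-fold lower (adjusted p 0.000184). Mylpf, the regulatory chain, had 68708, 74286, 78134 and 77545 against 43164, 24842, 47770 and 23053, a log2 change of -1.18 ± 0.24 or 2.26-fold lower (adjusted p 0.000324). No value of the treated arrays reached the lowest vehicle array for either chain.

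Actn3 of the Z-disc had 84024, 76972, 95193 and 94010 with vehicle and 28083, 14070, 19063 and 9383 at 1.0 mg/kg/day. Its log2 change was -2.42 ± 0.43, or 5.35-fold lower (adjusted p 9.6e-05). The lower pair of treated arrays was again replicates 2 and 4.

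Mylk2, the kinase that phosphorylates the regulatory light chain, showed the largest fall of the 8. Its signal was 10722, 6959, 12852 and 12828 with vehicle and 1466, 117, 1765 and 220 at 1.0 mg/kg/day, a log2 change of -4.31 ± 0.69 or 19.9-fold lower (adjusted p 3.9e-05). The spread among treated arrays was also the widest, the highest being 15.1 times the lowest, against 1.61 times for Myl1. Its other probe set had 1031, 192, 1186 and 143 on the treated arrays and changed by -3.79 ± 0.65 (adjusted p 7.6e-05). Replicates 2 and 4, low in these genes, also had the slow Myh7 at 91.9 and 1719, while replicates 1 and 3 had 42294 and 37253.

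**Figure D2:**
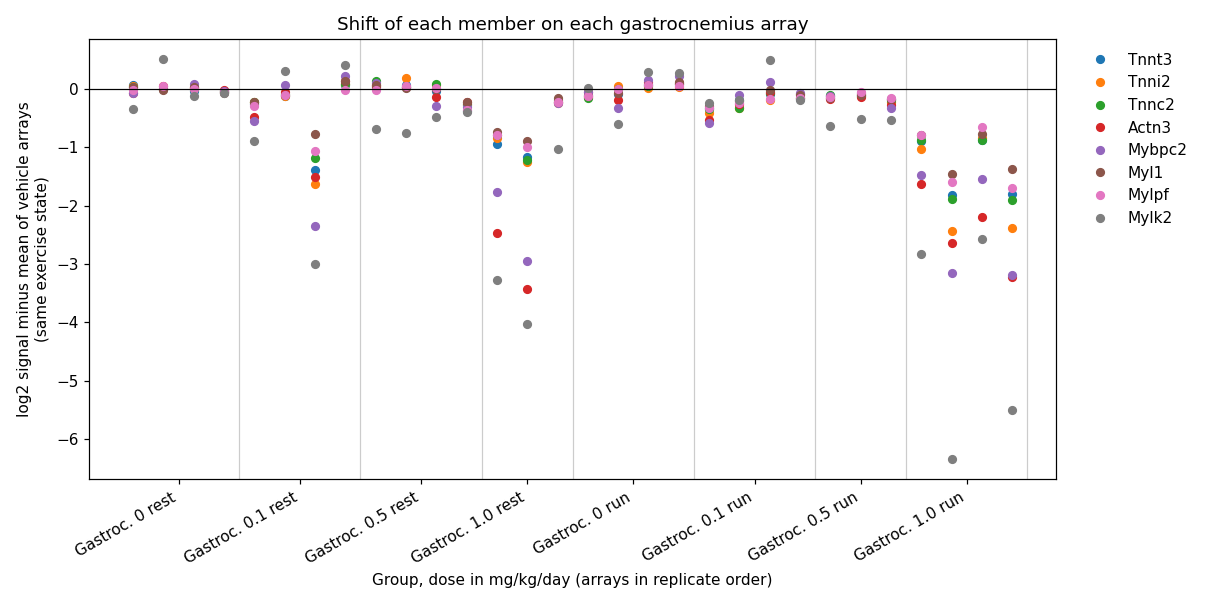
Each point is the log2 signal of a gene on a gastrocnemius array minus the mean of the vehicle arrays of the same exercise state, with groups in order of exercise and dose (mg/kg/day; rest, no treadmill; run, treadmill). All genes lie below 0 on the exercised 1.0 mg/kg/day arrays, Mylk2 the farthest. Replicate 3 at 1.0 mg/kg/day without exercise stays near the vehicle level except for Mylk2 (-1.02), and replicate 3 at 0.1 mg/kg/day without exercise drops. Mylk2 parts from the others on some arrays, such as replicates 1 and 2 at 0.5 mg/kg/day without exercise (-0.68 and -0.74, members' medians 0.07 and 0.04).

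The size of these falls depended on the scaling. The highest signal of an exercised gastrocnemius array was 96318 to 110223 with vehicle and 47263 to 69415 at 1.0 mg/kg/day. By rank on the array, Myl1 was at 17 to 19 with vehicle and 12 to 49 at that dose, and Mylpf at 19 to 22 and 14 to 117. The part of the lower maxima in the falls was not tested. Under quantile normalization, which gives all arrays the same distribution, 6 of the 8 genes stayed lower, Myl1 (-0.22, adjusted p 0.255) and Mylpf (-0.37, adjusted p 0.119) no longer passed, and the median change was -0.74. Mylk2 kept -4.25 there, and Tnnt3 was at -0.53. The share of all probe sets called under this scaling is not given, so the 6 of 8 do not describe the members alone. Median centring moved the median of all probe sets from -0.0062 to -0.11 and the members' median to -1.63.

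Without exercise, 3 of the 8 genes fell at 1.0 mg/kg/day, where 3.81% of probe sets were called lower. Actn3 had 78561, 85388, 84832 and 81356 with vehicle and 14874, 7640 and 71096 with the drug, a log2 change of -2.04 ± 0.46 or 4.11-fold lower (adjusted p 0.0137, n = 4 and 3). Mylk2 had 8997, 16425, 10620 and 10988 against 1171, 692 and 5632, a change of -2.78 ± 0.74 (adjusted p 0.025). Mybpc2 had 69833, 73485, 78192 and 71627 against 21564, 9492 and 62175, a change of -1.65 ± 0.52 (adjusted p 0.0443). These 3 genes were lowest on replicates 1 and 2, while on replicate 3 the shift from the vehicle mean was -0.21 for Actn3, -0.24 for Mybpc2 and -1.02 for Mylk2, and on all 11 probe sets the treated arrays lay below the vehicle arrays, as on 7.47% of all probe sets.

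The other 5 genes did not pass without exercise, with log2 changes from -0.78 (Tnni2 and Tnnt3) to -0.59 (Myl1) and adjusted p up to 0.152. Tnni2, for example, had 46401, 34736 and 70498 against 79817 to 85714 with vehicle. This comparison turned on single arrays: without replicate 3 at 1.0 mg/kg/day all 8 genes were called lower, as were 12.3% of all probe sets. Without its replicate 1 or 2 none of the 8 was, and the share of all probe sets called lower was 0.0138% and 0.0046%. Without vehicle replicate 2 or 3, 1 of the 8 was, with 1.07% and 1.14% of all. When only these 2 groups were fitted, none of the 8 and 0% of all probe sets were called. The members' count and the share over all probe sets thus moved together.

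Whether exercise changed the response to 1.0 mg/kg/day was tested as the difference between the log2 changes. It was negative for all 8 genes, from -1.54 ± 1.01 (Mylk2) to -0.38 ± 0.63 (Actn3), and none passed (adjusted p 0.705 to 0.873), where 0% of probe sets were called. At an unadjusted p under 0.05 the count was 0 of the 8 genes and 1375 of all 21729 probe sets. A p that misses the threshold does not show that the responses were alike.

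At the lower doses none of the 8 genes passed the test. With exercise, the median log2 change was -0.15 at the middle dose, 0.5 mg/kg/day, and -0.20 at the low dose, 0.1 mg/kg/day. In each, 0% of probe sets were called, 626 and 957 probe sets had an unadjusted p under 0.05, and 0 of the 8 genes did. Mylk2 had 6756, 7370 and 7334 on the exercised arrays at 0.5 mg/kg/day, within the vehicle range of 6959 to 12852 on 2 of 3 arrays, while its other probe set, at 3107, 4736 and 4184, lay below the lowest vehicle array (4850). All other member probe sets overlapped there, and 2.78% of all probe sets lay wholly below vehicle. At 0.1 mg/kg/day with exercise, Tnni2 (highest 85007) and Mylpf (highest 67332) lay below their lowest vehicle arrays (86462 and 68708), and the other member probe sets overlapped. The share of all probe sets wholly below vehicle was not counted at that dose. Without exercise the medians were -0.07 at the middle and -0.44 at the low dose, again with 0% of probe sets called in each, 593 and 885 with an unadjusted p under 0.05, and 0 of the 8 genes. At the middle dose without exercise Mylk2 had 7173, 6839, 8202 and 8684, all below the lowest vehicle array (8997), a change of -0.58 ± 0.69 that did not pass (adjusted p 1), and its other probe set overlapped. On 1.14% of all probe sets that group lay wholly below vehicle.

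The lower median at 0.1 than at 0.5 mg/kg/day without exercise came with replicate 3 at 0.1 mg/kg/day. There Actn3 was 28922 against 58990, 80182 and 90954 on the other 3 arrays, and Mylk2 was 1419 against 6216, 14209 and 15186. On that array the members' median shift from vehicle was -1.45, and -0.27, -0.09 and 0.12 on the others. Its macrophage marker sum was 61969 against 11948 to 13161, its fibroblast sum 207699 against 52966 to 99486 and its adipocyte sum 126410; their part in the low signals was not tested. Leaving this array out gave 0 of 8 called as well.

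Exercise alone, without the drug, was not followed by a called change in any of the 8 genes. In the vehicle gastrocnemius the log2 differences ran from -0.12 to 0.19 with a median of 0.09, 0% of probe sets were called, and 724 probe sets but 0 of the 8 genes had an unadjusted p under 0.05. In the vehicle soleus the median was 0.03 (range -0.61 to 0.18), with 0% called, 645 probe sets with an unadjusted p under 0.05 and 0 of the 8 genes. Without the 5 soleus arrays of high Myh4 that median was 0.28 (range -0.95 to 0.74), and again none of the 8 was called. These arrays include 2 of the 4 in each vehicle soleus group, so few arrays remained.

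In the soleus the first comparison was the muscle itself. The 8 genes were all lower in the soleus than in the gastrocnemius of vehicle rats, by a median log2 difference of -1.31 without exercise and -1.52 with it, and on all 11 probe sets the soleus arrays lay below the gastrocnemius arrays, as they did on 8.92% of all probe sets without exercise and on 10.6% with it. Without exercise 5 of 8 passed, where 3.76% of probe sets were called lower, and with exercise 6 of 8, where 6.83% were.

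Actn3 had 231, 47690, 18698 and 363 on the unexercised vehicle soleus arrays and 72, 282, 37491 and 16406 on the exercised ones, against 76972 to 95193 on the 8 vehicle gastrocnemius arrays. Its log2 differences were -4.78 ± 1.34 (adjusted p 0.0243) without and -5.47 ± 1.34 (adjusted p 0.00521) with exercise. In each of these soleus groups 2 arrays were above 10000 and the other 2 below 1000. Mybpc2 had 102, 32581, 11894 and 674 without exercise and 157, 1286, 20125 and 6492 with it, and differed by -4.96 ± 1.13 (adjusted p 0.00658) and -5.09 ± 1.13 (adjusted p 0.00233). The same arrays were high in both genes.

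The troponins and light chains differed less. Tnni2 was at 18312, 55199, 30823 and 31384 in the unexercised and at 15640, 56302, 45044 and 24799 in the exercised vehicle soleus, and differed from the gastrocnemius by -1.40 ± 0.41 (adjusted p 0.03) and -1.59 ± 0.41 (adjusted p 0.00775). Tnnt3 differed by -1.43 ± 0.37 (adjusted p 0.0145) and -1.46 ± 0.37 (adjusted p 0.00656), and its dimmer probe set by -4.23 ± 0.69 and -3.77 ± 0.69. Tnnc2 differed by -0.89 ± 0.30 without exercise, which did not pass (adjusted p 0.059), and by -0.87 ± 0.30 with it (adjusted p 0.0457). Mylpf differed by -1.03 ± 0.28 (adjusted p 0.0197) and -0.96 ± 0.28 (adjusted p 0.0172).

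Myl1 was the gene with the smallest difference. It had 57969, 57586, 47740 and 62910 in the unexercised and 58974, 67518, 61011 and 63174 in the exercised vehicle soleus, and its differences of -0.40 ± 0.19 and -0.35 ± 0.19 did not pass (adjusted p 0.198 and 0.22). Mylk2 had 5380, 6993, 3215 and 4705, and 3472, 3439, 4340 and 2614; its differences of -1.23 ± 0.60 and -1.62 ± 0.60 did not pass (adjusted p 0.222 and 0.066), although its other probe set passed with exercise (-1.98 ± 0.56, adjusted p 0.0164). The leading gene differed from that under the drug: Mylk2 changed most with the drug in the gastrocnemius, and Actn3 and Mybpc2 differed most between the muscles. The rest of the order was similar with exercise. Mylk2, Actn3 and Mybpc2 had the largest values in both comparisons, and Myl1 had the smallest in both.

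Single arrays carried calls here too. The unexercised count went from 5 to 0 without soleus replicate 1 (1.77% of all probe sets called lower), to 2 without soleus replicate 4 (2.16%) or gastrocnemius replicate 2 (1.94%), and to 3 without gastrocnemius replicate 3 (1.82%). The exercised count went from 6 to 2 without soleus replicate 1 (5.34%).

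**Figure D3:**
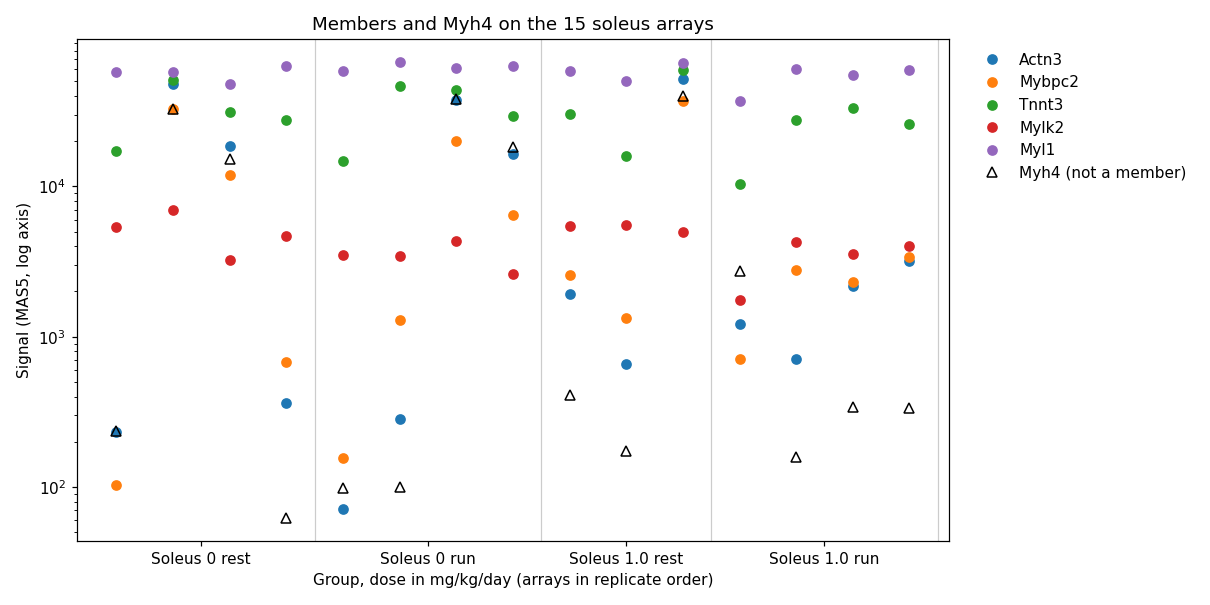
Signal (MAS5 intensity, log axis) of 5 of the genes on the 15 soleus arrays, with the fast myosin heavy chain Myh4 as open triangles; arrays stand in replicate order within groups (dose in mg/kg/day; rest, no treadmill; run, treadmill). Actn3 and Mybpc2 are high on the 5 arrays with Myh4 above 10000 and low on the others, while Myl1 spans 1.83 times and Mylk2 4.01 times.

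Across the 15 soleus arrays Actn3 ranged from 71.6 to 51452, the highest being 719 times the lowest, and Mybpc2 from 102.5 to 36740.0, or 358 times. For Tnni2 the ratio was 6.2, for Tnnt3 5.76, for Mylk2 4.01, for Mylpf 3.66, for Tnnc2 3.4 and for Myl1 1.83. The 5 arrays with Myh4 above 10000 had Actn3 at 16406 to 51452 and the other 10 at 71.6 to 3200, and Mybpc2 at 6492 to 36740.0 and 102.5 to 3365. On 4 of the 11 probe sets (Actn3, both of Mybpc2 and the dim one of Tnnt3) the 5 arrays lay above all others, and on the other 7 they overlapped. Myh4 is itself a fast-fibre gene, so this split describes how the members go together and is no independent test.

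Leaving out these 5 arrays, an alternative chosen after the values were seen, changed the muscle difference to -8.09 ± 0.59 for Actn3 and -8.03 ± 0.73 for Mybpc2 without exercise, and to -9.12 ± 0.59 and -7.39 ± 0.73 with it. Tnni2 then differed by -1.79 ± 0.48 and -1.67 ± 0.48. In the exercised comparison 4 of 8 passed without them, where 3.32% of probe sets were called lower, Mylpf (adjusted p 0.0581) and Tnnc2 (adjusted p 0.117) no longer passing. In the unexercised comparison it was 5 of 8, where 1.98% were called lower. Both counts include Actn3 and Mybpc2, in which the arrays left out lay above all other soleus arrays. The larger differences of these genes thus follow from the choice of arrays, and their calls are no test. The arrays left out were 2 of the 4 in each vehicle soleus group.

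At 1.0 mg/kg/day in the soleus none of the 8 genes passed the test. With exercise the log2 changes ran from -0.51 to -0.08 (median -0.36), 0% of probe sets were called, and 1156 probe sets but 0 of the 8 genes had an unadjusted p under 0.05. Actn3 was at 1210, 712, 2164 and 3200, and Mylk2 at 1746, 4287, 3560 and 4041. Replicate 1 of this group was the lowest of the 15 soleus arrays for 6 of the 8 genes, all but Actn3 and Mybpc2, with Tnni2 at 9477 and Myl1 at 36933, and its actin 5′ to 3′ ratio was 0.245. Its adipocyte marker sum was 103594 against 12377 to 19242 on the other 3 arrays, its endothelial sum 20610 against 8054 to 8688 and its macrophage sum 57624 against 25899 to 36631; their part in the low signals was not tested. Without this array the members' median was -0.10, with a range of -0.20 to 0.27, so the shared negative direction rested on it. Without exercise the changes ran from 0.03 to 1.10 (median 0.09), with 0% called, 593 probe sets and 0 of the 8 genes at an unadjusted p under 0.05. There Actn3 was at 1918, 654 and 51452, and its change was 0.43.

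Without the 5 arrays of high Myh4 the Actn3 change with exercise turned from -0.32 to 3.33 ± 0.64 (adjusted p 0.392) and that of Mybpc2 from -0.22 to 2.08 ± 0.88 (adjusted p 0.516), with 2 vehicle arrays against 4. Without exercise, the log2 difference without them was 1.91 ± 0.74 for Actn3 and 2.73 ± 1.02 for Mybpc2, where Mybpc2 had been at 1.10, and the range over the 8 genes was -0.15 to 2.73. For the unexercised soleus the arrays left out were 2 of the 4 vehicle and 1 of the 3 treated arrays. None of the 8 genes passed in either comparison, with or without the high-Myh4 arrays.

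The last comparison was whether the response to 1.0 mg/kg/day differed between the muscles. With exercise the log2 change in the gastrocnemius minus that in the soleus was negative for all 8 genes, and 2 passed, where 25.3% of probe sets did: Mylk2 (-4.23 ± 0.85, adjusted p 0.000797) and Myl1 (-0.83 ± 0.27, adjusted p 0.0208). Mylk2 changed by -4.31 in the gastrocnemius and by -0.08 in the soleus, and Myl1 by -1.10 and -0.27. A count of 2 of 8 is close to that background share. For Actn3 the difference was -2.09 ± 1.89 (adjusted p 0.446) and for Mybpc2 -2.12 ± 1.60 (adjusted p 0.351).

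Without the 5 soleus arrays of high Myh4 the differences became -5.75 ± 0.76 for Actn3 (adjusted p 0.000117) and -4.43 ± 0.94 for Mybpc2 (adjusted p 0.00397), Mylk2 kept -4.21 ± 1.00 (adjusted p 0.00775) and Myl1 was -0.82 ± 0.32 (adjusted p 0.0759), so 3 passed, beside 14.5% of probe sets. The 5 arrays were picked by Myh4, which separates them from the other soleus arrays in Actn3 and Mybpc2 without overlap. They included 2 of 4 vehicle and 0 of 4 treated arrays of the exercised soleus. The larger differences of Actn3 and Mybpc2 thus depend on that choice, and their calls are no test. The Myl1 call was also lost without replicate 2 or 4 of the gastrocnemius or replicate 2 of the soleus at 1.0 mg/kg/day with exercise, and 5 genes passed without replicate 1 of that soleus group, with 28.8% of all probe sets. Without exercise none of the 8 passed (-2.90 ± 0.92 for Mylk2, adjusted p 0.12), where 0.0092% of probe sets did; at an unadjusted p under 0.05 it was 2 of the 8 genes and 3929 probe sets. Without replicate 3 of the unexercised gastrocnemius at 1.0 mg/kg/day 2 genes passed, with 16.4% of all probe sets.

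**Figure D4:**
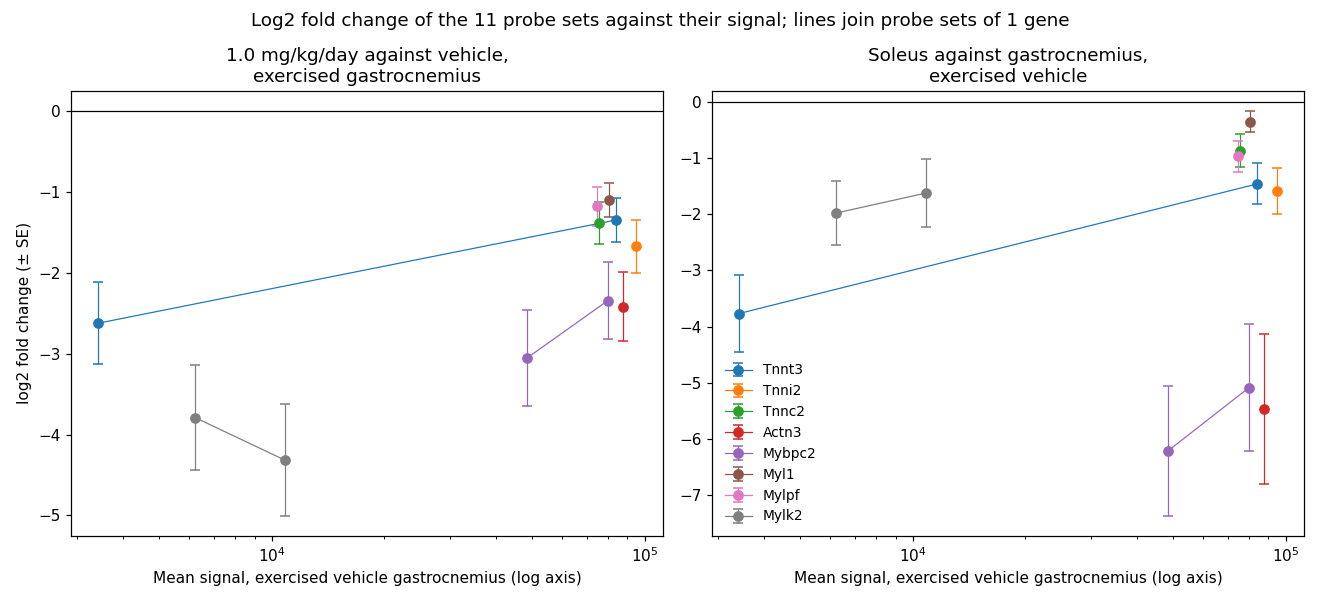
Log2 fold change with its SE (y axis) against the mean signal in the exercised vehicle gastrocnemius (x axis, log scale) for the 11 probe sets, for the drug in the exercised gastrocnemius (left) and for the soleus against the gastrocnemius (right); lines join probe sets of a gene. For Tnnt3 and Mybpc2 the dimmer probe set has the larger change in both panels, and for Mylk2 only in the right panel.

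The paired probe sets measured the same gene with different sizes of change. In the exercised gastrocnemius at 1.0 mg/kg/day the pairs were -1.34 and -2.62 for Tnnt3, -2.34 and -3.05 for Mybpc2 and -4.31 and -3.79 for Mylk2, the brighter first. The brighter Tnnt3 and Mybpc2 probe sets are among the 7 near the top of the array's range; the part of that in the difference was not tested.

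Over the 12 groups, the members' mean log2 signal was highest in the gastrocnemius of vehicle rats with exercise (1.10 above the members' mean over the groups) and without (1.01), followed by the lower doses (0.91 to 0.54). It was -0.24 in the gastrocnemius at 1.0 mg/kg/day without exercise, -0.76 in the soleus at that dose without exercise, -0.87 in the gastrocnemius at that dose with exercise, and lower still in the other 3 soleus groups, down to -1.41 at that dose with exercise. With the groups put in each gene's own order of levels, every group's arrays overlapped those of the next for 7 genes, and for Mylk2 all did but the step from 0.1 mg/kg/day with exercise to 0.5 mg/kg/day without it in the gastrocnemius. The 2 lowest groups for Mylk2 and Myl1 were the gastrocnemius groups at 1.0 mg/kg/day, and for Actn3, Mybpc2 and Tnnt3 the 4 soleus groups were the lowest.

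By root mean square difference from this mean profile over the 12 groups, the nearest genes other than the members, among 11684 genes tested in all, were Myoz1 (0.10), a Z-disc gene of fast fibres, Agtpbp1 (0.11), Rabgef1 (0.16), Ldha (0.17), the muscle form of lactate dehydrogenase, Fam78a (0.17) and Clcn4 (0.18). The members themselves lay between 0.24 (Tnni2) and 1.36 (Actn3) from their own mean.

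Other genes of the sarcomere were read from lists for comparison. Among 7 slow counterparts tested, 2 fell in the exercised gastrocnemius at 1.0 mg/kg/day, Mybpc1 (-2.72 ± 0.56, adjusted p 0.000427) and Actn2 (-2.05 ± 0.72, adjusted p 0.0222), and the list's median was -0.29. Of all probe sets, 20.4% were called lower there. These 2 genes were not called different between the muscles of vehicle rats. Soleus against gastrocnemius, without and with exercise, Mybpc1 was at -0.20 and 0.03 and Actn2 at 0.55 and 1.20 (adjusted p 0.196 to 0.98). The slow troponins did not pass, at 0.05 ± 1.56 for Tnnt1, 0.11 ± 1.60 for Tnni1 and 0.47 ± 1.55 for Tnnc1. In the exercised vehicle soleus 5 of the 7 were higher than in the gastrocnemius, among them Tnnt1 (5.13 ± 1.32, adjusted p 0.00764), and without exercise 0 of 7. Slow Myh7 was uneven on the vehicle gastrocnemius arrays, at 9892, 84953, 3793 and 165 with exercise. Without exercise it was 84475, 60979, 31698 and 34671. The part of this in the count with and without exercise was not tested. Over all 21729 probe sets, 1376 were called higher with exercise and 709 without it.

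Of 35 other sarcomere genes tested, 25 fell and 0 rose in the exercised gastrocnemius at 1.0 mg/kg/day, with a median of -2.04. Of all probe sets, 20.4% were called lower with exercise and 3.81% without it. They included Myh4 (-2.04 ± 0.41, adjusted p 0.000308), the M-band gene Myom2 (-3.84 ± 0.70, adjusted p 0.000126) and the Z-disc gene Ldb3 (-4.50 ± 1.03, adjusted p 0.00102). Without exercise 3 of the 35 fell, Myh4 (-2.17, adjusted p 0.0115), Tpm1 (-0.83, adjusted p 0.0419) and Pdlim7 (-1.83, adjusted p 0.0384). Falls at this dose with exercise were thus not limited to the fast isoforms.

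Of 15 sarcomere assembly genes tested, 8 fell with exercise, such as Smyd1 (-2.84 ± 0.65, adjusted p 0.000976), a methyltransferase needed for myosin assembly, and Klhl31 (-3.35 ± 0.68, adjusted p 0.000356), and 0 rose. Among 22 fibre type regulators tested, 14 fell and 1 rose: Sox6, a repressor of slow genes, changed by -3.04 ± 0.43 (adjusted p 1.41e-05), Vgll2, a cofactor of TEAD factors, by -2.40 ± 0.65 (adjusted p 0.00412), while Maf, a regulator of fast myosin, rose (1.02 ± 0.35, adjusted p 0.0216). Of 8 genes of light chain phosphorylation tested besides Mylk2, Ppp1r12c (1.41 ± 0.36) and Ppp1r12a (1.01 ± 0.36), subunits of the myosin phosphatase, rose and its catalytic subunit Ppp1cb fell (-1.17 ± 0.28). In the exercised gastrocnemius at 1.0 mg/kg/day 4990 of all 21729 probe sets were called higher and 4434 lower. The 2 of 8 phosphorylation genes that rose are near that share. Without exercise 3 of the 22 regulators fell, Sox6 (-1.84, adjusted p 0.02), Nfatc1 (-1.09, adjusted p 0.00852) and Nfatc3 (-0.77, adjusted p 0.0187). There 3.81% of all probe sets were called lower. None of 6 developmental sarcomere genes passed with exercise, and their median was 0.30.

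Markers of some other cells moved with these falls. Of 20 macrophage and leukocyte markers tested, 20 rose in the exercised gastrocnemius at 1.0 mg/kg/day, with a median of 4.37 (Aif1 by 5.22 ± 0.57 and Tyrobp by 5.07 ± 0.65), and their summed signal was 117745 to 260566 against 9577 to 12058 with vehicle. Without exercise 19 of 20 rose, and the sum was 18257, 147776 and 164277 against 7997 to 26178. Of 8 fibroblast markers 6 rose with exercise (Lum by 3.58 ± 0.54; sum 175740 to 209017 against 53309 to 135835), of 7 endothelial markers 2 and of 5 adipocyte markers 0. Over all 21729 probe sets, 4990 were called higher with exercise and 1238 without it. The 2 of 7 endothelial markers are near the share with exercise. No marker had a mean signal of 0 in any group. The part of these cells' RNA in the lower share of fast-fibre RNA was not tested.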

How the data were processed

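The authors deposited MAS5 signal intensities for 45 arrays of 1 channel, per the submitters' processing notes, which name MAS5. The intensity is on a linear scale. The groups were taken from the sample labels. Of 31042 probe sets without controls, 20826 carry 1 gene symbol, 436 several and 9780 none. From the deposited values, log2(signal + 12.4) was computed, the offset being the 10th percentile of all values, so a fold change is on that scale and understates changes of low genes. The filter kept the 21729 probe sets whose mean log2 value reached the 30th percentile, and these were tested with limma 3.58.1 in R 4.3.3 (group means, empirical Bayes with a trend), in fits of 30 gastrocnemius arrays, 15 soleus arrays or all 45, and p-values were adjusted by Benjamini-Hochberg within each of 15 comparisons (threshold 0.05). A gene was represented by its brightest tested probe set. Named genes were the 8 with all their probe sets, their slow counterparts, the 6 nearest in profile and, from each list, the 2 largest rises and 2 largest falls past the threshold in the exercised gastrocnemius at 1.0 mg/kg/day; members of counts of 5 or fewer, and Myh4, Myh7 and Cd68, were named after their values were seen. The members and lists were chosen with earlier results of these data known. The number of arrays limits the precision. The fit was tested on simulated data. No array pair was identical (highest correlation 0.966). RefSeq promoter windows are on GRCr8.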

Additional observations from a re-analysis of the deposited data

Results flagged for a closer look

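In a group of 4 arrays an array was singled out where its gap to the nearest other, as a share of the group's range, exceeded Dixon's critical value, and chance gives about 1 in 20 such cases; 2 arose in 72 tests. Mylk2 was at 14936 on replicate 3 of the exercised gastrocnemius at 0.1 mg/kg/day, where the other 3 arrays had 8923 to 9252. Mylpf was at 54990 on replicate 4 of the unexercised gastrocnemius at 0.5 mg/kg/day, where the others had 69538 to 72746.

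The response to 1.0 mg/kg/day with exercise differed between the muscles, gastrocnemius minus soleus on the log2 scale, for Mylk2 (-4.23, adjusted p 0.000797) and for Myl1 (-0.83, adjusted p 0.0208), by the interaction term of the limma fit over all 45 arrays, where 25.3% of all probe sets passed. The Myl1 call was lost in 7 of 30 alternatives (adjusted p up to 0.412) and the Mylk2 call in 0 of 30.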

How the results depend on the processing

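The 8 of 8 lower genes of the exercised gastrocnemius at 1.0 mg/kg/day stayed between 8 and 8 when each array was left out in turn; quantile normalization gave 6. The unexercised count of 3 ranged from 0 to 8 over left-out arrays, and was 0 with only the groups compared, 8 with array weights and 7 without the 3 arrays of lowest actin 5′ to 3′ ratio (replicate 3 of both gastrocnemius groups at 0.1 mg/kg/day and replicate 1 of the exercised soleus at 1.0 mg/kg/day). The muscle difference ranged from 0 to 6 without exercise and 2 to 6 with it. The muscle interaction with exercise, 2 genes, ranged from 1 to 5, and was 1 without a filter, under quantile normalization and with only the groups compared, and 6 with array weights and without the 3 arrays; without exercise, 0 genes, it ranged from 0 to 2 and was 2 with array weights and 1 without the 3 arrays. The exercise interaction, 0 genes, was 5 with array weights. The cause of these changes was not tested. All counts of this section are given without the share of all probe sets called, so they do not describe the members alone. The other comparisons stayed at 0 in every alternative run.

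With the replicate number as a block (replicate block), the count was 8 and 2 in the gastrocnemius at 1.0 mg/kg/day with and without exercise, and 5 and 5 for the muscle difference with and without it. Same-numbered arrays of different groups had a median correlation of deviations of 0.0058, with 44 of 234 pairs over 0.1, so the numbers were not taken as pairing. In the unexercised gastrocnemius quantile normalization put the least changed gene at 0.02. Precision is limited by the 3 or 4 arrays of a group, and 7 of the 11 probe sets are near the top of the array's signal range.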
